A study of Homo sapiens with 8 samples.

Results

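The mucins and mucous-cell regulators described here are 10 genes, taken by name from the 19158 genes measured in every library: the gel-forming mucins MUC5AC and MUC5B, the membrane mucins MUC1, MUC4, MUC13 and MUC16, the ETS-family transcription factor SPDEF, and the forkhead factors FOXA1, FOXA2 and FOXA3. They were measured by RNA sequencing after ribosomal RNA depletion in A549, an established epithelial line from a human lung adenocarcinoma, labelled as wild type. The study compared 4 untreated samples with 4 samples that received dexamethasone, a synthetic glucocorticoid, at 1 µM over 48 h. All 8 libraries came from the same line, carry the same batch label, and bear the replicate numbers 1, 3, 4 and 5 in each group. The labels name no solvent control for the untreated samples. Levels are given as FPKM (sequenced fragments normalised to transcript length and library total), as read from the scale of the deposited values. On that reading they can be set side by side between genes, though they carry no correction for repeats or GC content.

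Mucins are large, heavily O-glycosylated proteins. The gel-forming members are secreted, link into polymers and give airway mucus its viscosity, while the membrane mucins stay anchored at the cell surface, where they form a barrier and can signal through their cytoplasmic tails. In the airway, SPDEF drives the differentiation of mucus-producing goblet cells and FOXA3 promotes it, whereas FOXA2 restrains it. FOXA1 and FOXA2 are pioneer factors that open chromatin in lung and gut epithelium.

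Upstream sequences were available for 7 of the 10 genes in the RefSeq promoter table (GRCh38.p14). Those of MUC1, which rose, and of SPDEF and FOXA3, which fell, are printed because these genes changed in opposite directions. Each line holds the 250 bases upstream of the first start site listed, 5′ to 3′ on the strand of the gene, and capitals mark matches to the motifs given after them.
MUC1: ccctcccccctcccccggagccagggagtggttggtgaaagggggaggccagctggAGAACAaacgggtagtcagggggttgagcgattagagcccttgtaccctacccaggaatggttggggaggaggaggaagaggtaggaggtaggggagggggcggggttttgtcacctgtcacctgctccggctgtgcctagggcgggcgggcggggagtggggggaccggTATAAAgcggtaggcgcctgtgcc
SPDEF: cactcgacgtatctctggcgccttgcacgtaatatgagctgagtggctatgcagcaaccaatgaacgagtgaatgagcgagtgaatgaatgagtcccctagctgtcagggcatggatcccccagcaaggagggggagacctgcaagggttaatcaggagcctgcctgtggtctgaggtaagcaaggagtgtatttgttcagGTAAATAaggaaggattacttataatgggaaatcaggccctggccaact
FOXA3: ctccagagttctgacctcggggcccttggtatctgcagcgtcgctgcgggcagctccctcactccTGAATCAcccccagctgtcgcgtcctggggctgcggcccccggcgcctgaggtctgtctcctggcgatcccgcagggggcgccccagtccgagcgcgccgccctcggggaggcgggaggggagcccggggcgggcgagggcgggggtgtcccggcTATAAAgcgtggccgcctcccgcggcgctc
The MUC1 window lies at chr1:155192916-155193165 on the minus strand, the SPDEF window at chr6:34556330-34556579 on the minus strand, and the FOXA3 window at chr19:45864076-45864325 on the plus strand. Their G and C shares were 66%, 50.8% and 75.2%, beside a median of 58% over all 35116 windows of this length in the table. The motifs were searched on both strands as exact letters: the palindromic glucocorticoid receptor site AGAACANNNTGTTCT, its half-site AGAACA, the forkhead motifs TGTTTAC and TATTTAC, the ETS core CCGGAT in the form SPDEF prefers, the AP-1 site TGANTCA and the TATA box TATAAA. The half-site is contained in the palindrome, so any palindrome counts under both. In MUC1 the capitals are the half-site, 194 to 189 bases upstream, and the TATA box, 24 to 19 bases upstream. In SPDEF they are GTAAATA, the reverse complement of TATTTAC, 49 to 43 bases upstream. In FOXA3 they are an AP-1 match, 185 to 179 bases upstream, and a TATA box 30 to 25 bases upstream. These motifs are not rare: AGAACA occurred in 12.4% of all windows, TATAAA in 10.7%, TGANTCA in 6.57%, CCGGAT in 5.85%, TGTTTAC in 2.98% and TATTTAC in 2.39%. The full palindrome occurred in 1 of the 35116 windows, which belonged to none of the 7 genes. Of the other 4 genes with a window, MUC13 held an AP-1 match, and no searched letters were found in MUC4 and FOXA1. MUC16 held an AP-1 match in the window of start site 2, but no match in that of start site 1. Both MUC16 windows lie outside the coordinates given for the gene below. The windows of FOXA3, MUC4, MUC13 and FOXA1 lie within the coordinates given for those genes.

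The treatment labels were checked with FKBP5, a direct glucocorticoid receptor target, which ranged from 3.28 to 7.3 FPKM in the untreated libraries and from 87.3 to 166 FPKM in the treated ones. The keratins KRT8 and KRT18, which mark simple epithelia, were abundant throughout, with 957 to 2190 FPKM and 805 to 1270 FPKM. Of the other 3 epithelial markers, the keratin KRT19 fell from 156 to 54.7 FPKM (log2 fold change -1.50, limma adjusted p = 0.00119), the adhesion gene CDH1 rose from 6.8 to 18.2 FPKM (1.31, adjusted p = 8.87e-05), and the adhesion gene EPCAM stayed between 0.14 and 0.765 FPKM. The 2 libraries numbered 5 stood apart from the others of their groups on the second principal component, at 22.4 and 16 against -12.9 to 2.85, and untreated 5 had the fewest genes at 1 FPKM or more, 10555 against 11008 to 11378. The files hold no counts, and the low FPKM values did not settle the depth of the libraries, so no counting error is given here.

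Across the genome, 12161 genes reached the level needed for testing, and limma called 3280 of them (27.0%) at a Benjamini-Hochberg adjusted p under 0.05, with 1476 (12.1%) higher and 1804 (14.8%) lower after dexamethasone. Of the 10 genes, 8 could be tested and 6 were called: MUC1 was higher, and MUC5AC, MUC5B, SPDEF, FOXA2 and FOXA3 were lower. In those 6 genes the values of the 2 groups did not overlap, which was so for 31.5% of all tested genes. The median log2 fold change of the 8 was -0.88, beside 0.003 over all tested genes. MUC5AC, SPDEF and FOXA3 were under 0.5 FPKM in every treated library. They passed the filter (0.5 FPKM in at least 4 libraries) only through the untreated group, where they were higher. The counts and the median include these genes. MUC4 and MUC16 were too low to be tested, and the genes were picked with earlier results of these data known, so the counts describe these 8 genes and are not a test of the family. In this bulk RNA, fewer cells of a kind and less RNA per cell cannot be told apart.

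**Figure D1:**
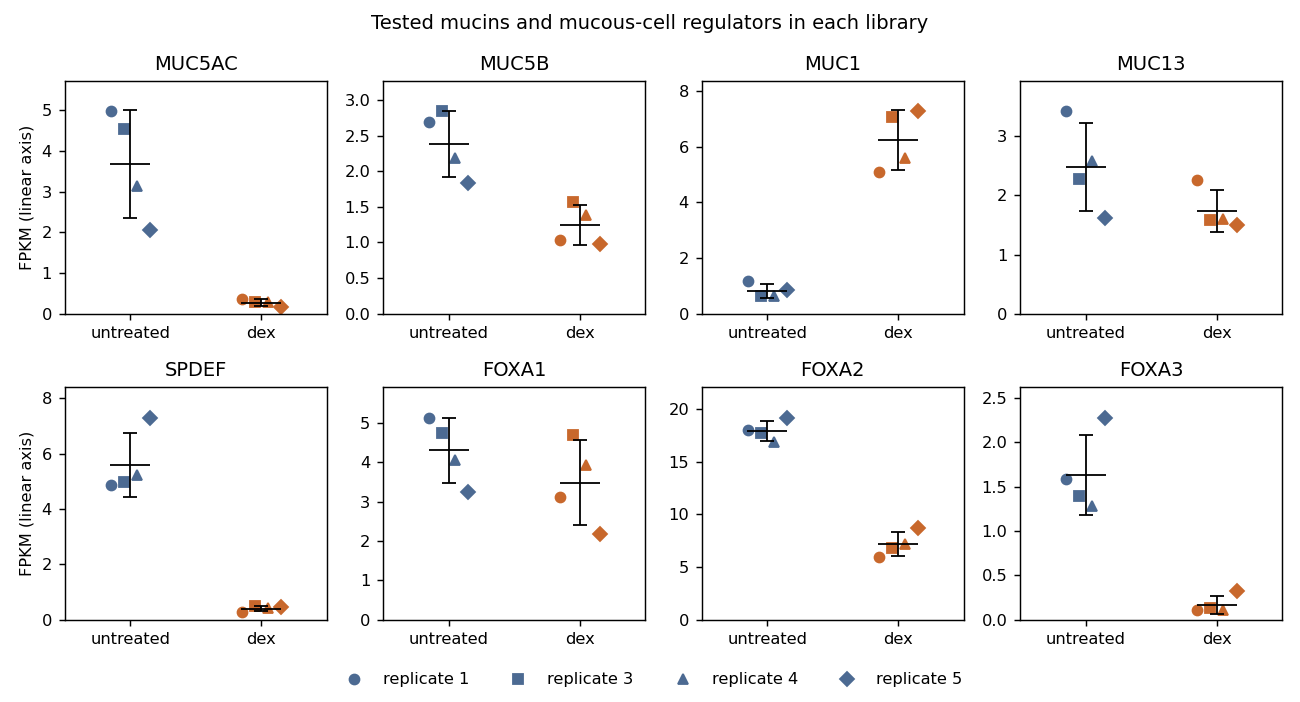
FPKM (linear vertical axes from 0) of the 8 tested genes in each untreated and dexamethasone (dex) library. Marker shapes give the replicate number, horizontal lines the mean and error bars the SD (n = 4 per group). The groups are separate for MUC5AC, MUC5B, MUC1, SPDEF, FOXA2 and FOXA3, and overlap for MUC13 and FOXA1.

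MUC5AC (ENSG00000215182), the gel-forming mucin of surface goblet cells, fell steeply after dexamethasone. It measured 4.97, 4.54, 3.14 and 2.05 FPKM in untreated libraries 1, 3, 4 and 5, and 0.352, 0.287, 0.28 and 0.163 FPKM in the treated libraries of the same numbers. Every treated value lay far below the lowest untreated value. The means were 3.68 ± 1.34 and 0.27 ± 0.0785 FPKM (SD, n = 4 each), a 13.6-fold lower level. On the log2(FPKM + 1) scale, which understates changes at low levels, the log2 fold change was -1.84 (SE 0.164, 95% interval -2.21 to -1.47, limma adjusted p = 4.51e-05). With a pseudocount of 0.1 in place of 1 it was -3.31.

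MUC5B (ENSG00000117983), the other secreted airway mucin, made by submucosal glands and surface secretory cells, also fell. Its untreated values were 2.69, 2.84, 2.19 and 1.83 FPKM, and its treated values were 1.04, 1.57, 1.38 and 0.975 FPKM. The lowest untreated library was above the highest treated one by a small margin. The mean went from 2.39 ± 0.461 to 1.24 ± 0.283 FPKM (SD, n = 4 each), 1.93-fold lower, with a log2 fold change of -0.60 (SE 0.12, 95% interval -0.87 to -0.33, limma adjusted p = 0.00491). With a pseudocount of 0.1 the log2 fold change was -0.91. This call was lost when each library's trend on gene GC content was removed, which gave a log2 fold change of -0.31 (limma adjusted p = 0.242). With the replicate number also fitted as a block, MUC5B was called at the same -0.31 (limma adjusted p = 0.0322). The antisense gene MUC5B-AS1 overlaps MUC5B on the opposite strand, and the sources used here do not say whether reads were counted by strand, so reads of the pair cannot be told apart.

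The neighbouring genes MUC5AC and MUC5B changed by unequal amounts. MUC5AC occupies chr11:1157953-1201138 and MUC5B chr11:1223066-1262172 in the GRCh38 coordinates of the files, both on the plus strand and 21927 bases apart. The ratio of MUC5AC to MUC5B within a library was 1.85, 1.6, 1.43 and 1.12 in the untreated libraries and 0.339, 0.183, 0.203 and 0.167 in the treated ones. MUC5AC was therefore the higher of the pair in every untreated library and the lower in every treated one. The ratio fell 6.89-fold (log2 difference -2.78, 2-sided exact permutation p = 0.0286, the smallest that 4 against 4 libraries allow, 0.0381 after adjustment over the 4 ratios examined). These 4 ratios were chosen after the values had been seen, and any ratio without overlap gives 0.0286 in this permutation test. The adjustment does not correct for that choice, so the p-values are descriptions. Neither gene flanking the pair was called: MUC2, the intestinal gel-forming mucin 47441 bases from MUC5AC, had means of 0.0127 and 0.00324 FPKM and was not tested, and TOLLIP, an inhibitor of Toll-like receptor signalling 12198 bases from MUC5B, had 21.9 and 20.5 FPKM and a log2 fold change of -0.11 (limma adjusted p = 0.657).

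SPDEF (ENSG00000124664, chr6:34537802-34556333, minus strand), whose upstream sequence is printed above, had the smallest p of the 8 tested genes. It read 4.88, 4.96, 5.21 and 7.3 FPKM in the untreated libraries and 0.272, 0.486, 0.411 and 0.45 FPKM in the treated libraries. Untreated 5 was the highest, and all 4 treated libraries were under 0.5 FPKM. The mean fell from 5.59 ± 1.15 to 0.405 ± 0.0935 FPKM (SD, n = 4 each), a 13.8-fold lower level. The log2 fold change was -2.23 (SE 0.183, 95% interval -2.64 to -1.82, limma adjusted p = 2.69e-05), and -3.51 with a pseudocount of 0.1. Ranked by p, SPDEF was gene 197 of the 12161 tested, MUC1 was 213 and MUC5AC was 252.

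FOXA2 (ENSG00000125798, chr20:22581005-22585455, minus strand) was the most abundant of the 10 genes in both groups. Untreated libraries held 18, 17.7, 16.9 and 19.2 FPKM, and treated libraries held 5.97, 6.79, 7.2 and 8.68 FPKM. The untreated values were tight, and the highest treated value was the one in library 5. The mean went from 18 ± 0.922 to 7.16 ± 1.14 FPKM (SD, n = 4 each), 2.51-fold lower, with a log2 fold change of -1.24 (SE 0.17, 95% interval -1.62 to -0.86, limma adjusted p = 0.000612).

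FOXA3 (ENSG00000170608, chr19:45863989-45873797, plus strand) was expressed at a lower level and fell further. Its values were 1.59, 1.39, 1.28 and 2.28 FPKM without dexamethasone and 0.11, 0.133, 0.114 and 0.324 FPKM with it. Library 5 was the highest of its group on both sides, and the groups were far apart. The means were 1.63 ± 0.447 and 0.17 ± 0.103 FPKM (SD, n = 4 each), a 9.6-fold lower level. The log2 fold change was -1.17 (SE 0.165, 95% interval -1.54 to -0.80, limma adjusted p = 0.000717), and -2.72 with a pseudocount of 0.1.

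FOXA1 (ENSG00000129514, chr14:37589984-37596059, minus strand), the remaining forkhead factor, was not called. It measured 5.14, 4.75, 4.07 and 3.25 FPKM in untreated libraries and 3.11, 4.7, 3.94 and 2.19 FPKM in treated ones. The groups overlapped, and library 5 was the lowest of each group. The means were 4.3 ± 0.829 and 3.48 ± 1.08 FPKM (SD, n = 4 each), with a log2 fold change of -0.27 whose 95% interval ran from -0.66 to 0.12 (SE 0.173, limma adjusted p = 0.27). A change of up to about the size seen for MUC5B therefore lies within the interval. FOXA1 overlaps TTC6 on the opposite strand, which had 0.217 to 0.902 FPKM.

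Within the forkhead trio, the ratio of FOXA3 to FOXA2 was 0.0883, 0.0783, 0.0757 and 0.119 in untreated libraries and 0.0184, 0.0196, 0.0158 and 0.0373 in treated ones. It fell 4.14-fold (log2 difference -2.05, 2-sided exact permutation p = 0.0286, adjusted 0.0381), without overlap. This ratio was chosen after its values had been seen, so its p-value is a description. The ratio of FOXA2 to FOXA1 was 3.5, 3.73, 4.16 and 5.89 against 1.92, 1.45, 1.83 and 3.97. Here the treated library 5 lay within the untreated range, and the log2 difference of -1.0 did not pass the test (2-sided exact permutation p = 0.0857, adjusted 0.0857). Under each replicate number the treated ratio was the lower, but the test did not use the numbers.

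MUC1 (ENSG00000185499, chr1:155185824-155192916, minus strand), a membrane mucin with a signalling tail, was the only one of the 8 tested genes that rose. It went from 1.16, 0.628, 0.645 and 0.857 FPKM in untreated libraries to 5.08, 7.07, 5.61 and 7.27 FPKM in treated ones. The lowest treated value was several times the highest untreated value. The mean rose from 0.823 ± 0.248 to 6.26 ± 1.08 FPKM (SD, n = 4 each), 7.61-fold. The log2 fold change was 1.98 (SE 0.168, 95% interval 1.60 to 2.36, limma adjusted p = 3.36e-05), and 2.79 with a pseudocount of 0.1. A read-through gene model on the same strand (ENSG00000273088) overlaps MUC1 in GENCODE v44 and has no row of its own in the files, so its reads cannot be told apart from those of MUC1. TRIM46, which organises neuronal microtubules and ends 852 bases from MUC1, had a log2 fold change of 0.32 (limma adjusted p = 0.0521), and THBS3, a thrombospondin gene on the other side, had 0.30 (adjusted p = 0.21).

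MUC13 (ENSG00000173702, chr3:124905442-124953819, minus strand), a membrane mucin best known from the gut, was not called. Its values were 3.42, 2.28, 2.58 and 1.62 FPKM in untreated libraries and 2.26, 1.59, 1.6 and 1.5 FPKM in treated libraries. In each group library 1 was the highest and library 5 the lowest, and the groups overlapped. The means were 2.48 ± 0.748 and 1.74 ± 0.353 FPKM (SD, n = 4 each), with a log2 fold change of -0.33 (SE 0.146, 95% interval -0.66 to -0.01, limma adjusted p = 0.121). With the GC trend removed it was called lower, at a log2 fold change of -0.54 (limma adjusted p = 0.0106). The ratio of MUC1 to MUC13 was 0.339, 0.275, 0.25 and 0.53 in untreated libraries and 2.25, 4.46, 3.52 and 4.84 in treated ones, a 10.8-fold rise (log2 difference 3.44, 2-sided exact permutation p = 0.0286, adjusted 0.0381). MUC13 was the higher of these 2 membrane mucins in every untreated library, and MUC1 in every treated one. Their ratio, too, was chosen after its values had been seen, so its p-value is a description.

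MUC4 (ENSG00000145113, chr3:195746765-195812277, minus strand), a membrane mucin that binds ERBB2, was close to 0 throughout. It was listed at 0.0507, 0, 0.00221 and 0.00237 FPKM in untreated and at 0, 0.00442, 0.00193 and 0 FPKM in treated libraries. MUC16 (ENSG00000181143, chr19:8848844-8981342, minus strand), the very large mucin that carries the CA125 antigen, was listed at 0.00448, 0, 0.00259 and 0 FPKM and at 0.000906, 0, 0.00346 and 0.0032 FPKM. No direction was read for either gene.

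**Figure D2:**
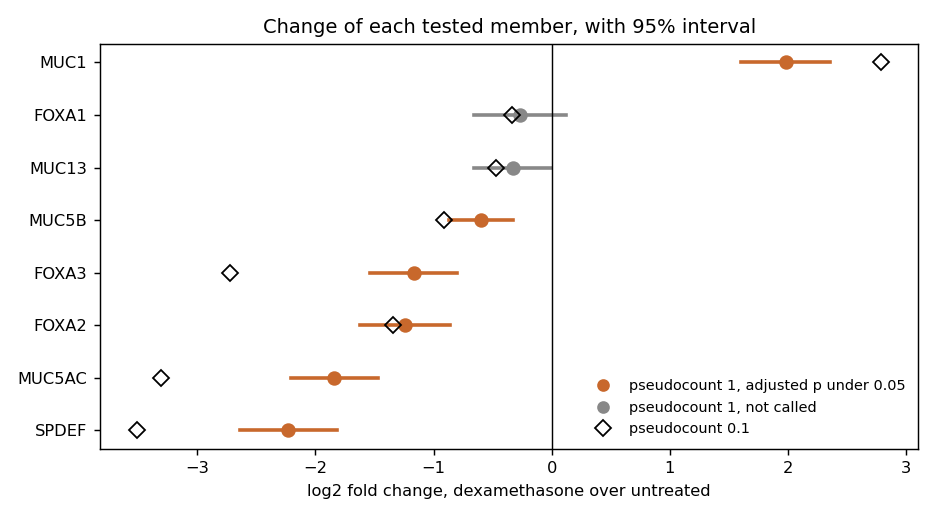
Log2 fold change (dexamethasone over untreated) of each tested gene on the horizontal axis, with filled points and 95% intervals on the log2(FPKM + 1) scale and open diamonds for a pseudocount of 0.1. MUC1 lies at 1.98 and SPDEF at -2.23; the intervals of MUC13 and FOXA1 reach to -0.01 and 0.12.

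The order of levels among the genes was rearranged. In untreated cells FOXA2 was the highest, without overlap with the next, followed by SPDEF, FOXA1, MUC5AC, MUC13, MUC5B and FOXA3, in which each gene overlapped its neighbour in the order. MUC1 came next, below FOXA3 without overlap, and MUC4 and MUC16 were at the bottom. After dexamethasone MUC1 had moved from rank 8 to rank 2, where its values overlapped those of FOXA2. FOXA1 came next, below MUC1 without overlap, and then MUC13 and MUC5B, each overlapping the gene before it. SPDEF moved from rank 2 to rank 6 and MUC5AC from rank 4 to rank 7. These 2 overlapped each other and FOXA3, and all 3 lay below MUC5B without overlap.

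GC content moved with the changes over the whole transcriptome. The median log2 fold change fell from 0.29 in genes under 45% GC, the class of MUC13, to -0.22 in genes of 55 to 60% GC, the class of MUC1, FOXA1 and FOXA2, and to -0.28 in genes at or above 60% GC, the class of MUC5AC, MUC5B, SPDEF and FOXA3. With each library's GC trend removed, limma gave log2 fold changes of 2.17 for MUC1 (adjusted p = 1.32e-06), -1.95 for SPDEF (adjusted p = 5.16e-07), -1.60 for MUC5AC (adjusted p = 0.000938), -1.02 for FOXA2 (adjusted p = 1.22e-05) and -0.90 for FOXA3 (adjusted p = 2.23e-05). FOXA1 then stood at -0.07 (adjusted p = 0.817). Apart from MUC5B and MUC13, the tested genes thus kept their side of the threshold.

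The libraries numbered 5 touched several of these values. Without both of them, limma gave log2 fold changes of -2.09 for SPDEF (adjusted p = 4.89e-06), -1.96 for MUC5AC (adjusted p = 4.82e-05), -0.59 for MUC5B (adjusted p = 0.00718), 1.97 for MUC1 (adjusted p = 7.5e-05), -1.24 for FOXA2 (adjusted p = 5.59e-05) and -1.09 for FOXA3 (adjusted p = 5.62e-05). MUC13, at -0.38 (adjusted p = 0.0728), and FOXA1, at -0.17 (adjusted p = 0.382), again missed the threshold.

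**Figure D3:**
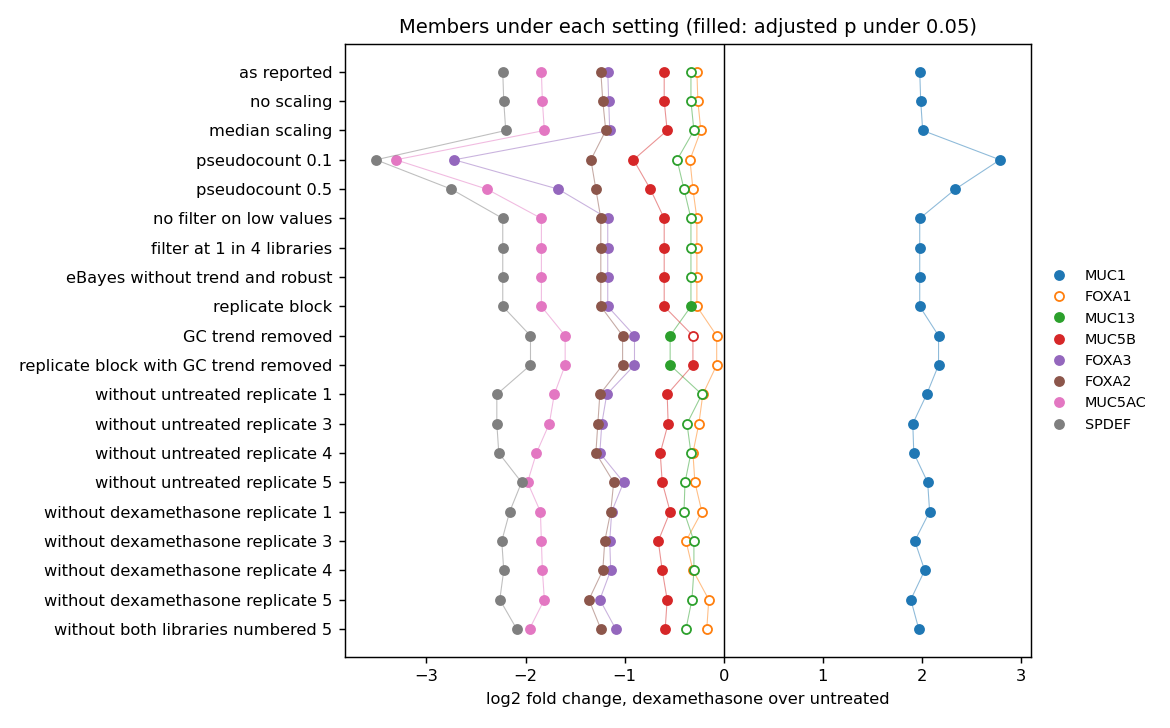
Log2 fold change (dexamethasone over untreated) of the 8 tested genes, 1 row per analysis setting, with filled points for an adjusted p under 0.05 and open points otherwise. No gene changes sign; MUC5B becomes open with the GC trend removed (-0.31), and MUC13 becomes filled there (-0.54) and with the replicate block (-0.33).

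The rest of the mucin family was mostly silent. Of 15 other mucin genes, 12 were too low to be tested, 5 of these at 0 in every library, and 1 of the 3 tested was called (33.3%, beside 27.0% of all genes), with a median log2 fold change of -0.20. MUC3A, a membrane mucin best known from the intestine, read 3, 2.99, 2.54 and 3.86 FPKM in untreated and 11, 10.7, 8.91 and 12 FPKM in treated libraries. All treated values were above all untreated ones, and limma gave a log2 fold change of 1.50 with an SE of 0.184 (adjusted p = 0.00032). MUC3A belongs to a cluster of repeat-rich mucins on chromosome 7 with near-identical stretches, so its level is uncertain. MUC12, of the same cluster, had means of 2.51 and 1.92 FPKM and a log2 fold change of -0.28 (limma adjusted p = 0.265), and OVGP1, oviductin, had 0.682 and 0.475 FPKM and -0.20 (adjusted p = 0.224).

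Summed over 19 mucin genes, the level per library was 17.6, 16.1, 13.7 and 13.4 FPKM in untreated cells and 22.1, 24.3, 19.7 and 24.2 FPKM in treated cells. The total was thus higher in every treated library than in any untreated one. MUC3A was not alone in adding to this, since MUC1 also rose (means of 0.823 and 6.26 FPKM). Without MUC3A the sums were 14.6, 13.1, 11.2 and 9.5 FPKM in untreated and 11.1, 13.6, 10.8 and 12.1 FPKM in treated libraries, which overlap. MUC5AC and MUC5B together made up 7.66, 7.38, 5.34 and 3.89 FPKM of it without dexamethasone and 1.39, 1.86, 1.66 and 1.14 FPKM with it. The share of MUC5AC was 15.3 to 28.2% in untreated and 0.675 to 1.59% in treated libraries. The share of MUC1 was 3.89 to 6.58% and then 23 to 30.1%, and that of MUC3A 17 to 28.9% and then 44.1 to 50%. These sums are descriptions and were not tested.

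**Figure D4:**
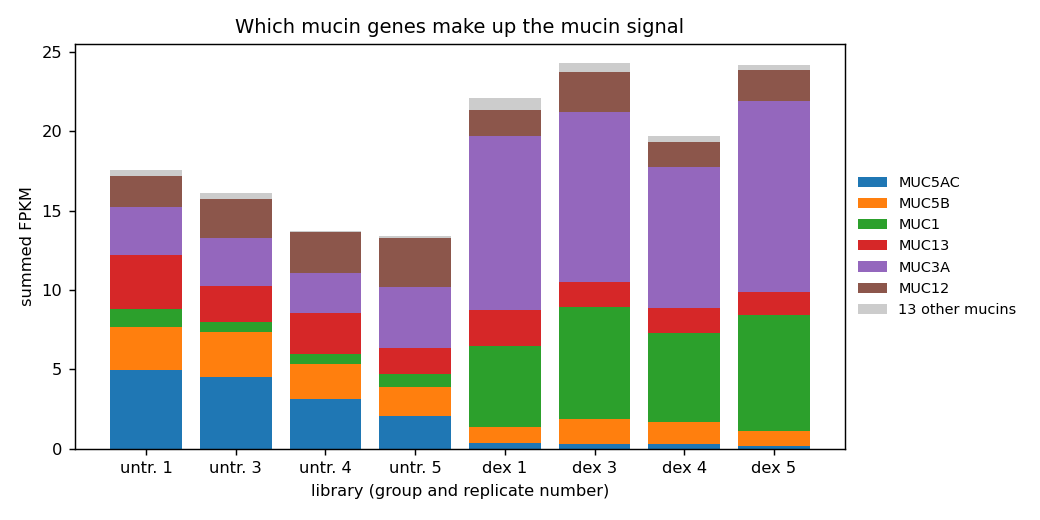
Summed FPKM (vertical axis, linear from 0) of 19 mucin genes in each untreated (untr.) and dexamethasone (dex) library, stacked by gene. The MUC5AC and MUC5B blocks together shrink from 3.89 to 7.66 FPKM down to 1.14 to 1.86 FPKM, and the MUC1 and MUC3A blocks grow.

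Genes whose values followed SPDEF most closely were looked up as a description. Over the 8 libraries, the highest Pearson r of log2(FPKM + 1) with SPDEF were 0.9991 for PADI3, a protein-citrullinating enzyme, 0.999 for MPP2, a membrane scaffold protein, and 0.9982 for TESC, a calcium-binding protein. Among the mucins and regulators, r with SPDEF was 0.981 for FOXA3, 0.977 for FOXA2, 0.912 for MUC5AC, 0.888 for MUC5B, 0.578 for MUC13, 0.488 for FOXA1 and -0.933 for MUC1. All of these points share the split between treated and untreated libraries, so any gene that changed strongly has a high r.

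Of 18 flanking genes, the nearest measured gene on each side of a mucin or regulator, 11 were tested and 3 were called (27.3%, beside 27.0% of all genes). HEG1, a cardiovascular membrane protein 11890 bases from MUC13, rose from 6.6 to 14.5 FPKM (log2 fold change 1.05, limma adjusted p = 0.000413). MIPOL1, beside FOXA1, rose by 0.52 on the log2 scale (limma adjusted p = 0.0391). IRF2BP1, a transcriptional corepressor 9809 bases from FOXA3, fell from 32.4 to 16.4 FPKM (log2 fold change -0.94, limma adjusted p = 0.00632), whereas SYMPK, the polyadenylation scaffold on the other side of FOXA3, had -0.34 (adjusted p = 0.246). Beside SPDEF, C6orf106 had 0.32 (limma adjusted p = 0.166) and PACSIN1 was too low to be tested.

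The products that goblet and other secretory cells release with mucins were mostly low as well. Of 26 such genes, 20 were too low to be tested, 8 of these at 0 in every library. Among the 6 tested, 4 were called (66.7%, beside 27.0% of all genes), 1 higher and 3 lower, with a median log2 fold change of -0.73. SLPI, a secreted antiprotease, rose from 2.51 ± 0.764 to 31.1 ± 1.94 FPKM (SD, n = 4 each, log2 fold change 3.20, SE 0.202, limma adjusted p = 6.34e-06). CEACAM6, a cell adhesion glycoprotein, fell from 11.9 ± 3.52 to 1.32 ± 0.341 FPKM (log2 fold change -2.45, limma adjusted p = 1.31e-05), though another gene model overlaps it on the same strand. TFF1, a trefoil peptide secreted with mucins, fell from 1.4 ± 0.461 to 0.0532 ± 0.0687 FPKM (log2 fold change -1.18, limma adjusted p = 0.000157).

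The enzymes that build mucin O-glycans, and the genes for folding and secretion, moved less uniformly. Of 32 O-glycosylation genes, 23 were tested and 7 called (30.4%, beside 27.0% of all genes), 5 higher and 2 lower, with a median log2 fold change of 0.12. With the GC trend removed 12 were called, 8 higher and 4 lower. Among the 5 higher calls, GCNT1 passed the filter only through the treated group, where it was higher. ST3GAL1, which caps core O-glycans with sialic acid, rose from 3.88 ± 0.37 to 11.4 ± 0.317 FPKM (SD, n = 4 each, log2 fold change 1.33, limma adjusted p = 2.31e-05). Among the transferases that start O-glycans, GALNT18 rose from 12.5 ± 0.484 to 26.6 ± 1.48 FPKM (log2 fold change 1.01, limma adjusted p = 0.00035) and GALNT14 fell from 16.5 ± 0.713 to 7.68 ± 0.432 FPKM (-1.03, adjusted p = 0.000486). Of 12 folding and packaging genes, 9 were tested and 2 called (22.2%, beside 27.0%), both higher: the stress sensors ATF6 (log2 fold change 0.55, limma adjusted p = 0.00722) and ERN1 (0.45, adjusted p = 0.0319). Without both libraries numbered 5 this count was 5 of 10, 3 higher and 2 lower. BCAS1 was among the lower ones there (log2 fold change -0.96, limma adjusted p = 0.000119). With all libraries BCAS1 had means of 0.827 and 0.0262 FPKM and was not tested, since untreated 5 held 0.307 FPKM. Of 15 granule exocytosis genes, 12 were tested and 5 called (41.7%, beside 27.0%), each of them higher, with a median of 0.18. Without both libraries numbered 5 the calls were 6 higher and 1 lower, and with no filter on low values 5 higher and 1 lower. UNC13B, a priming factor, rose from 7.44 ± 0.752 to 13.9 ± 0.373 FPKM (limma adjusted p = 0.000413). RAB3D, a granule GTPase that other genes overlap, rose from 13.3 ± 0.456 to 25.5 ± 3.46 FPKM (adjusted p = 0.00378 by limma), and the fusion protein VAMP8 from 13.4 ± 1.76 to 23.2 ± 2.86 FPKM (adjusted p = 0.013 by limma).

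Other regulators of mucous differentiation changed in both directions: of 32 genes, 24 were tested and 17 called (70.8%, beside 27.0% of all genes), 8 higher and 9 lower, with a median log2 fold change of -0.20. SOX9, a progenitor transcription factor, fell from 11.3 ± 1.79 to 3.3 ± 0.289 FPKM (SD, n = 4 each, log2 fold change -1.52, limma adjusted p = 1.57e-05). SOX2, a proximal airway factor that lies within SOX2-OT, fell from 1.69 ± 0.375 to 0.219 ± 0.0327 FPKM (log2 fold change -1.13, limma adjusted p = 1.67e-05). AREG, an EGF receptor ligand, fell from 26.3 ± 4.76 to 8.65 ± 1.25 FPKM (log2 fold change -1.50, limma adjusted p = 2.33e-05). Of 12 genes of the airway signature of interleukin-13, the cytokine that drives goblet cell metaplasia, only CST1, a cystatin, and CCL26, eotaxin-3, could be tested. Both fell (100% of those tested, beside 27.0% of all genes), CST1 from 3.37 ± 0.714 to 0.527 ± 0.235 FPKM (limma adjusted p = 0.000246) and CCL26 from 2.34 ± 0.811 to 0.626 ± 0.267 FPKM (adjusted p = 0.00805 by limma). With no filter on low values 4 were called, 3 lower and 1 higher. Of 12 genes for mucus hydration and ion transport, 6 were tested and 4 called (66.7%, beside 27.0%), 3 higher and 1 lower, with a median log2 fold change of 2.01, which was 0.40 over 7 tested genes without both libraries numbered 5. Among the 3 higher calls, SCNN1B and SCNN1G passed the filter only through the treated group, where they were higher. The chloride channel gene ANO1 had means of 1.1 and 0.119 FPKM and was not tested, since untreated 5 held 0.386 FPKM. The sodium channel subunit SCNN1B rose from 0.164 ± 0.102 to 31.2 ± 3.68 FPKM (log2 fold change 4.78, limma adjusted p = 5.37e-08). SCNN1G, another subunit, was listed at 0 in 3 untreated libraries and averaged 13.1 ± 1.4 FPKM after treatment.

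**Figure D5:**
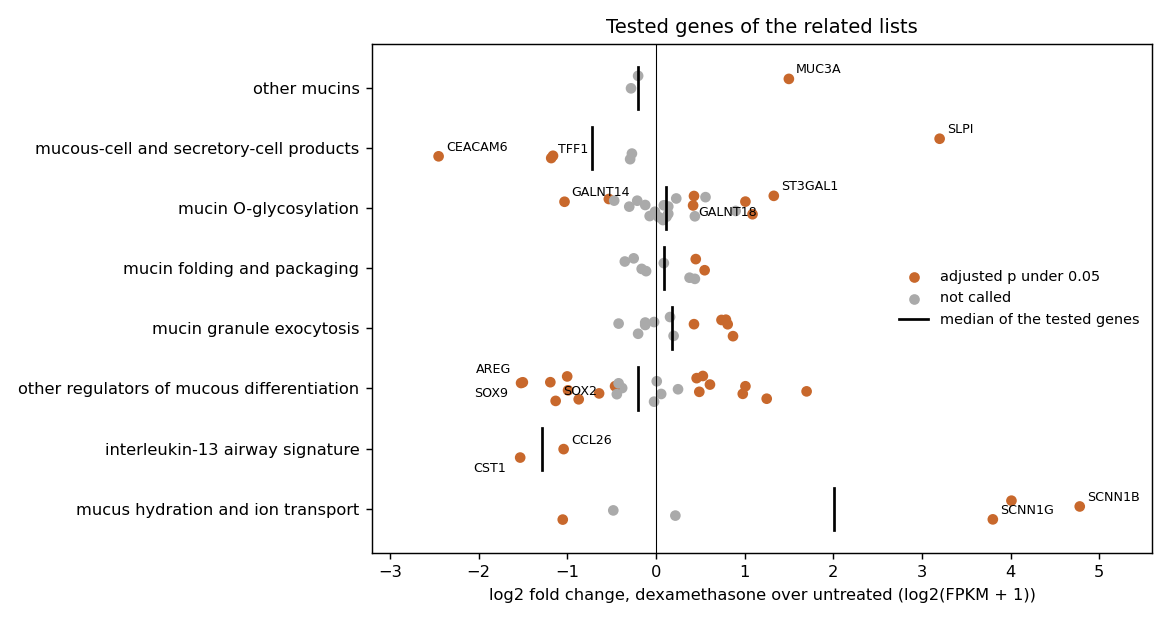
Log2 fold change (dexamethasone over untreated, log2(FPKM + 1) scale) of each tested gene in 8 related gene lists, with orange points for an adjusted p under 0.05 and black bars for the median of the list. The other regulators spread to both sides (8 higher, 9 lower), the 5 called exocytosis genes lie on the higher side, and SCNN1B reaches 4.78.

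Markers of other cell types were read in every library. Of 7 goblet markers, 5 were tested and 4 were lower, but 3 of these 4 are MUC5AC, MUC5B and SPDEF themselves, and the other is FCGBP, a mucus-binding secreted protein (3.41 to 0.948 FPKM). The summed level of the 7 was 40.9 to 80.7 FPKM in untreated and 31.7 to 53.5 FPKM in treated libraries. Most of that sum was AGR2, a disulfide isomerase needed for mucin folding, which was not called (51.5 ± 17 and 41.1 ± 9.29 FPKM, SD, n = 4 each, log2 fold change -0.29, limma adjusted p = 0.347). AGR2 was called lower with the GC trend removed (-0.52, limma adjusted p = 0.00493) and without both libraries numbered 5 (-0.35, adjusted p = 0.0474). The goblet markers CLCA1, at 0 in every library, and TFF3, at or under 0.0962 FPKM, were absent or nearly so. Of 5 club cell markers, 4 were at 0 in every library, and their sum reached at most 0.0183 FPKM. Summed basal markers were 1.86 to 3.15 and then 1.04 to 1.41 FPKM, summed ciliated markers 1.31 to 1.44 and then 1.45 to 2.58 FPKM (with DNAH5, an axonemal dynein, at means of 0.282 and 1.01 FPKM but FOXJ1, the ciliated-cell regulator, at 0.258 and 0.0178 FPKM), and summed alveolar type II markers 16.9 to 23.2 and then 18.8 to 28.9 FPKM. Nearly all of the alveolar type II sum was ABCA3, with means of 18.6 and 22 FPKM. NAPSA had means of 0.537 and 0.459 FPKM. SFTPA1 was at 0 in every library, and SFTPA2, SFTPB, SFTPC and LAMP3 reached at most 0.291 FPKM. Summed leukocyte markers were 6.2 to 7.88 and then 3.26 to 4 FPKM, with PTPRC and CD3E at 0 in every library. Most of that sum was CD68 (means of 4.03 and 2.05 FPKM) and CD14 (2.48 and 1.32 FPKM). Summed fibroblast markers were 1.87 to 2.39 and then 0.604 to 0.826 FPKM, with COL1A2 at 0 in every library. COL1A1 fell from 2.03 to 0.367 FPKM, whereas DCN was at 0 in untreated and at 0.178 to 0.355 FPKM in treated libraries. Most of the basal sum was DLK2 (1.41 and 0.656 FPKM) and TP63 (0.946 and 0.434 FPKM), whereas KRT5 had 0.0304 and 0.0917 FPKM.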

How the data were processed

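RNA from 4 untreated and 4 dexamethasone-treated A549 samples was sequenced. Per the submitters' processing notes, FastQC 0.11.9, cutadapt 3.4, STAR 2.7.9a, featureCounts of Subread 2.0.3, DESeq2 1.32.0 and GRCh38 were used. The deposited values are named as counts, but they are not whole numbers and were read as FPKM from their scale. The authors' counts, annotation and strand setting are not given in the sources used here.

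FPKM were scaled between libraries by unweighted trimmed means of M (trim 0.3 and 0.05), filtered at 0.5 in at least 4 libraries, and tested as log2(FPKM + 1) with limma 3.58.1 (R 4.3.3; lmFit, eBayes with trend and robust, two-sided). p-values were Benjamini-Hochberg adjusted over all genes tested and called under 0.05. Printed FPKM are unscaled, and the filter used these values. Genes such as TFF1, SOX2 and PADI3 passed it only through the untreated group. Genes such as SCNN1B, SCNN1G, DNAH5 and GCNT1 passed it only through the treated group. The counts and medians of the lists include such genes. The samples were labelled as replicates of one line, so p-values measure only the spread between them. Alternatives covered scaling, pseudocount, filter, moderation, replicate block, GC trend (natural spline, 5 df) and left-out libraries. Strand, GC and overlaps came from GENCODE v44. The script was tested on simulated data with 4 libraries per group and 200 changed genes. It recovered 10.5% of 1.5-fold, 43.5% of 2-fold and 82% of 4-fold changes, with 4, 2 and 7 false calls. A gene not called may thus still have changed.

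Named genes were all 10 members, FKBP5, the 3 tested genes of each list with the smallest p (2 in lists under 15 genes), each member's nearest measured gene on either side, and the 3 genes most correlated with SPDEF. Other genes named were chosen after their values were seen. The members and lists were chosen with earlier results of these data known.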

Additional observations from a re-analysis of the deposited data

Results flagged for a closer look

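In groups of 4 libraries, 10 of 62 groups examined for the named genes had 1 library far from the other 3 (Dixon's ratio above 0.829); chance alone gives about 1 in 20. Of these, 4 were untreated 5 and 3 were dexamethasone 5, the libraries that also stood apart on the second principal component.

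Among the mucins and regulators, SPDEF was 7.3 FPKM in untreated 5 against 4.88 to 5.21 in the others, and FOXA3 was 0.324 FPKM in dexamethasone 5 against 0.11 to 0.133. MUC13 was 2.26 FPKM in dexamethasone 1 against 1.5 to 1.6, and MUC4 was 0.0507 FPKM in untreated 1 against 0 to 0.00237.

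Among the genes of the related lists, untreated 5 was low for SOX9 (8.68 against 11.9 to 12.4 FPKM) and ATF6 (3.92 against 6.12 to 6.23 FPKM), and was the only untreated library above 0 for SCNN1G (0.0115 FPKM). Dexamethasone 5 was low for ATF6 (7.42 against 8.89 to 9.15 FPKM) and high for GALNT18 (28.8 against 25.7 to 26 FPKM). SCNN1B was 0.316 FPKM in untreated 1 against 0.101 to 0.122 FPKM in the other untreated libraries.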

How the results depend on the processing

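Over 19 alternatives, no tested mucin or regulator changed sign, and 148 of 152 combinations of gene and alternative kept their side of the threshold. The exceptions were MUC5B, with a log2 fold change of -0.31 with the GC trend removed (limma adjusted p = 0.242), and MUC13, called at -0.33 with the replicate block (adjusted p = 0.026), at -0.54 with the GC trend removed (adjusted p = 0.0106) and at -0.54 with both (adjusted p = 0.00315). Over all alternatives the log2 fold change ran from -3.51 to -1.95 for SPDEF, -3.31 to -1.60 for MUC5AC, -0.91 to -0.31 for MUC5B, -1.36 to -1.02 for FOXA2, -2.72 to -0.90 for FOXA3, 1.89 to 2.79 for MUC1, -0.54 to -0.22 for MUC13 and -0.38 to -0.07 for FOXA1; for SPDEF, MUC5AC, MUC5B, FOXA3 and MUC1 the values farthest from 0 came from a pseudocount of 0.1.

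Over all genes, the count of calls was 3280, and 5769 with the replicate block, 5272 with block and GC trend removed, 5513 without both libraries numbered 5, and 2285 to 3836 leaving out 1 library at a time; the cause was not tested. Same-numbered libraries deviated together with r of 0.291, 0.0659, 0.314 and 0.713 for numbers 1, 3, 4 and 5, and not every library correlated best with its own number, so the numbers were not taken as pairing. This does not show that the samples were unpaired, and the calls with the replicate block are given above. Among the lists, calls in folding and packaging went from 2 to 5 without both libraries numbered 5 and to 4 with no filter on low values, and calls in the interleukin-13 signature from 2 to 4 with no filter. Calls in O-glycosylation went from 7 to 12 with the GC trend removed, an alternative for the lists that was chosen after seeing the data. Scaling moved the median of all genes by less than 0.1 on the log2 scale. The files hold no counts, so the counting error of low genes such as MUC4 and MUC16 is unknown.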
